A study of Mus musculus with 4 samples.

Results

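The 10 genes examined here are the core of the circadian clock and its direct output factors: Per1, Per2, Per3, Cry1, Cry2, Arntl, Nr1d1, Nr1d2, Dbp and Tef. They were taken by gene symbol from an array table of 33793 transcript clusters, each a set of probes that read the same transcribed locus. All 10 were found, in 11 clusters, since Tef has a second cluster on the opposite strand. The tissue was whole brain from adult females, all of the 129SV strain, measured on Affymetrix whole-transcript arrays, with 2 arrays for wild type and 2 for Adar2-/-. Per the study's methods, the animals of both genotypes were siblings that carried the pre-edited Gria2 R/R allele, which rescues the early death caused by loss of ADAR2. The wild type is therefore a Gria2 R/R mouse with intact Adar2, and the knockout is a Gria2 R/R mouse without it. ADAR2, the product of Adarb1, is an enzyme that deaminates adenosines of double-stranded RNA to inosine. The labels state no hour of collection for any of the 4 arrays, and nothing in them assigns same-numbered arrays to one litter or day.

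In mammalian cells a dimer of ARNTL (also called BMAL1) with CLOCK or NPAS2 binds E-box elements and activates the Per, Cry, Nr1d, Dbp and Tef genes. PER and CRY proteins return to the nucleus and inhibit this dimer, while NR1D1 and NR1D2 repress Arntl through ROR elements and DBP and TEF act through D-box elements. In most mouse tissues most of these E-box targets peak between day and early night. Arntl, Npas2 and Clock peak late at night, and so does Cry1, although it is an E-box target. Samples collected at different hours therefore differ in opposite directions in these groups. Dbp and Nr1d1 are known for the widest daily swings among them.

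The letters of such elements were sought in the 300-base RefSeq promoter windows of GRCm38.p6 (250 bases before to 50 after each start). Both strands were searched for 4 elements, and a match in letters does not show binding or regulation. These were the E-box CACGTG, the variant E-box CACGTT, the D-box TTANGTAA and the ROR element TNAGGTCA. None of the matches to one element was also a match to another. A window was found for 9 of the 10 genes, with 12 windows in all, and Per2 is named only. The E-box was held by 4 of these 12 windows, those of Per1, Cry1 and Tef, and by 7.15% of all 32851 windows. The variant E-box was held by 3 windows, those of Cry1, Cry2 and Nr1d1 (4.68% of all windows), the D-box by the window of Per3 (2.32%) and the ROR element by a window of Per1 (4.58%). The elements are given here in capitals with 10 bases on either side, read 5′ to 3′ on the strand of the gene, so that a match on the other strand appears as its reverse complement. The windows of Dbp, Nr1d2 and Arntl held none of these letters, which says nothing about elements elsewhere in those genes.
Per1, E-box, chr11:69098773-69098798, plus strand: cacccaagtcCACGTGcagggatgtg
Cry1, E-box, chr10:85185099-85185124, minus strand: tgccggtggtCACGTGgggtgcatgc
Tef, E-box of the first start, chr15:81802536-81802561, plus strand: gctgtggctcCACGTGctgcagctgg
Tef, E-box of the second start, chr15:81811266-81811291, plus strand: cctggcccagCACGTGtctacatcgt
Nr1d1, variant E-box, chr11:98775390-98775415, minus strand: cacagatctcAACGTGccggctgctg
Cry2, variant E-box, chr2:92434220-92434245, minus strand: acatggtgggAACGTGagggggcgga
Cry1, variant E-box, chr10:85185118-85185143, minus strand: acacttcagaAACGTGaggtgccggt
Per1, ROR element, chr11:69098802-69098829, plus strand: gacacagcccTGACCTCAgtgggggcca
Per3, D-box, chr4:151044853-151044880, minus strand: gacccgcgcgTTATGTAAggtactcggg
Per3, second D-box, chr4:151044806-151044833, minus strand: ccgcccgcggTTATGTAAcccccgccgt

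The genotype labels were checked first on the targeted gene. Adarb1 had a log2 signal of 10.50 and 10.45 on the wild-type arrays and of 9.16 and 8.96 on the knockout arrays. Over all clusters 0 of 33793 passed an adjusted p of 0.05 in limma, 2009 or 5.95% had an unadjusted p below 0.05, and the lowest adjusted p was 0.409, that of Adarb1 among others. Neuronal markers were bright on every array, with Snap25 between 12.97 and 13.16, whereas 4 Y-linked genes that female mice lack lay between 3.49 and 4.40. Markers of some other tissues and regions also differed between the arrays. The summed level of 5 pituitary markers was 8.14 and 7.56 in wild type and 11.13 and 10.30 in knockout. That of 3 salivary gland markers was 12.73 in knockout replicate 1 against 6.43 to 6.64 elsewhere, and that of 4 olfactory bulb markers was 8.54 in knockout replicate 2 against 9.28 to 9.41 elsewhere. Fewer cells of a type and less RNA per cell cannot be told apart in whole tissue.

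None of the 10 genes passed the test between genotypes. Of these 0 passed an adjusted p of 0.05 in limma, 0 had an unadjusted p below 0.05 (5.95% of all clusters did, 3.64% higher and 2.31% lower in the knockout), and their adjusted p-values ran from 0.834 to 0.992. The log2 fold changes of knockout against wild type lay between -0.26 (Cry2) and 0.185 (Per1), with a median of -0.04 beside 0.005 over all clusters. Both arrays of one genotype lay above both of the other in 4 of the 10 genes, or 40.0%, where the share over all clusters was 34.1%. The smallest two-sided p that an exact permutation test allows with 2 arrays per genotype is 0.333. The 95% limma interval of each of the 10 genes stayed within a 1.5-fold change either way, so that a 2-fold difference between genotypes lay outside the interval of every one of them.

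**Figure D1:**
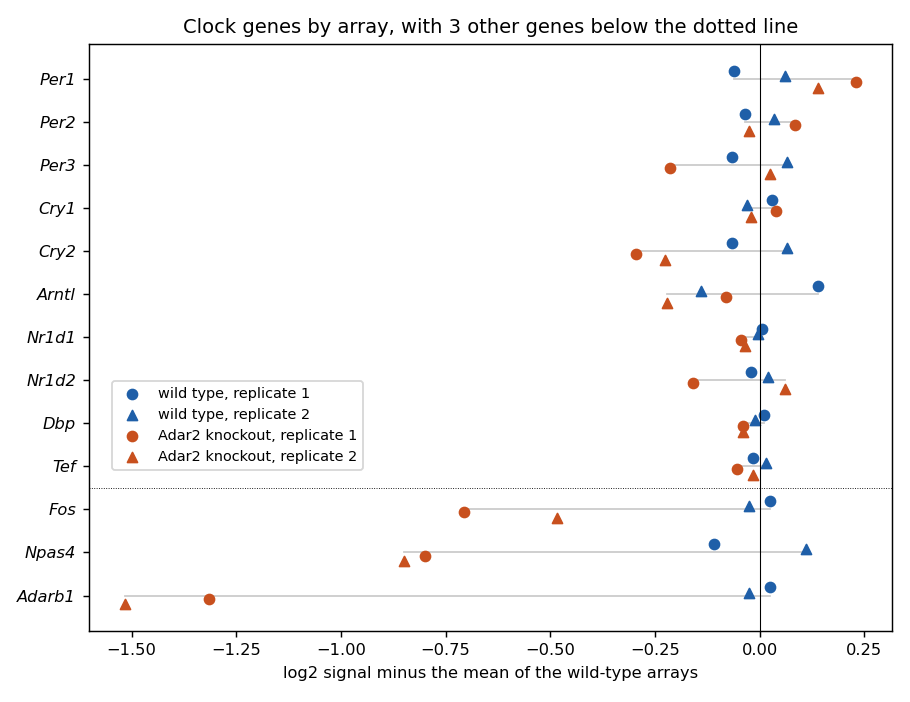
Log2 signal of each gene on each array, as the difference from the mean of the wild-type arrays (x axis), with wild type in blue, Adar2 knockout in orange and the replicate number given by the symbol. Dbp, Nr1d1, Tef and Cry1 span 0.05 to 0.07 over the 4 arrays, whereas Fos, Npas4 and Adarb1, shown for scale, lie lower in both knockout arrays.

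The period genes encode inhibitory subunits, and the transcripts of Per1 and Per2 are also set by light, neuronal activity and glucocorticoids. Per1 (chromosome 11, 69095217 to 69109960, plus strand) had a log2 signal of 10.20 and 10.32 in wild type and of 10.49 and 10.40 in knockout. Both knockout arrays were thus above both wild-type arrays, but the nearest of them, at 10.32 and 10.40, lay closer together than the wild-type arrays themselves. The log2 difference was 0.185 (SE 0.11, n = 2 per genotype, limma p 0.145, adjusted p 0.854), which is 1.14-fold with an interval from 0.942 to 1.37. Per2 (chromosome 1, 91415982 to 91459330, minus strand) was at 7.96 and 8.03 in wild type and at 8.08 and 7.97 in knockout, with the genotypes interleaved (log2 difference 0.03, SE 0.11, limma p 0.790, and -0.01 after median centring). Per3 (chromosome 4, 151003652 to 151044665, minus strand) was at 7.99 and 8.12 in wild type and at 7.84 and 8.08 in knockout. Its lowest value was knockout replicate 1, and the difference of 0.24 between the knockout arrays was larger than the log2 difference of -0.095 between genotypes (SE 0.13, limma p 0.490). That difference was 0.025 without knockout replicate 1, -0.215 without knockout replicate 2 and -0.16 without wild-type replicate 1.

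Per1 is also an activity-induced gene, so its values were set beside those of Fos and Npas4, transcription factors induced by neuronal activity. Fos was at 8.32 and 8.27 in wild type and at 7.59 and 7.81 in knockout, and Npas4 at 9.59 and 9.81 against 8.90 and 8.85. Both were lower on each knockout array, with a log2 difference of -0.595 for Fos (SE 0.12, limma p 0.0029, adjusted p 0.834) and of -0.825 for Npas4 (SE 0.12, limma p 0.000558, adjusted p 0.829), while the Per1 values lay the other way. The difference between these genes was not tested.

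The cryptochromes are the partners through which PER proteins silence the activating dimer. Cry1 (chromosome 10, 85131700 to 85185054, minus strand) was at 7.15 and 7.09 in wild type and at 7.16 and 7.10 in knockout, and the 4 arrays differed by no more than 0.07. Cry1 lies on the chromosome of the targeted gene, 7.71 Mb from Adarb1, and its log2 difference was 0.01 (SE 0.10, limma p 0.927, interval -0.25 to 0.27, and -0.03 after median centring). Cry2 (chromosome 2, 92403646 to 92434069, minus strand) was at 9.52 and 9.65 in wild type and at 9.29 and 9.36 in knockout. Both knockout arrays were below both wild-type arrays, and the gap between the nearest arrays of the genotypes, 9.52 and 9.36, was wider than the gap within either genotype. This was the largest difference among the 10 genes, at -0.26 (SE 0.11, n = 2 per genotype, limma p 0.0571, adjusted p 0.834, interval -0.53 to 0.01), a level 0.835 times that of wild type. It ranged from -0.325 to -0.195 over 13 alternative settings. The unadjusted limma p was 0.0341 after median centring, 0.0391 among clusters above the median signal and 0.0265 with an intensity trend. In these 3 the adjusted p stayed at 0.813 or above. In the other direction, the limma p was 0.0862 under quantile normalization and 0.106 under cyclic loess. The pooled-variance test without shrinkage gave a p of 0.072.

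Arntl, the activator of the loop (chromosome 7, 113207465 to 113314126, plus strand), was at 9.08 and 8.80 in wild type and at 8.86 and 8.72 in knockout. Wild-type replicate 1 stood above the other 3 arrays, which lay within 0.14 of each other, and the genotypes overlapped. The log2 difference was -0.15 (SE 0.14, limma p 0.315, adjusted p 0.903). Leaving out wild-type replicate 1 gave -0.01 and leaving out wild-type replicate 2 gave -0.29, while leaving out knockout replicate 1 gave -0.22 and knockout replicate 2 gave -0.08.

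The nuclear receptors NR1D1 and NR1D2 close the second loop by repressing Arntl. Nr1d1 (chromosome 11, 98767932 to 98775333, minus strand) was at 10.91 and 10.90 in wild type and at 10.86 and 10.87 in knockout. Its range over the 4 arrays, 0.05 on the log2 scale or 1.04-fold, was exceeded or equalled by all but 0.811% of clusters. The genotypes did not overlap, but by a log2 difference of only -0.04 (SE 0.10, limma p 0.706). That sign was not fixed, since quantile normalization gave 0.005 and cyclic loess 0.01. Nr1d2 (chromosome 14, 18204054 to 18239127, minus strand) was at 8.91 and 8.95 in wild type and at 8.77 and 8.99 in knockout, and the knockout arrays enclosed both wild-type values (log2 difference -0.05, SE 0.12, limma p 0.693). The sign turned to 0.06 without knockout replicate 1, and without knockout replicate 2 the difference was -0.16.

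Dbp and Tef encode PAR bZIP factors that carry the rhythm to D-box genes. Dbp (chromosome 7, 45705088 to 45710203, plus strand) was at 10.42 and 10.40 in wild type and at 10.37 in both knockout arrays. Like Nr1d1 it spanned 0.05 over the 4 arrays, and its log2 difference was -0.04 (SE 0.10, limma p 0.706, interval -0.29 to 0.21) with a sign that turned to 0.0012 under quantile normalization and 0.01 under cyclic loess. Tef (chromosome 15, 81802421 to 81826863, plus strand) was at 8.48 and 8.51 in wild type and at 8.44 and 8.48 in knockout. The second Tef cluster (chromosome 15, 81800790 to 81802613, minus strand) lies across the start of the gene on the opposite strand and was at 6.67 and 6.56 in wild type and at 6.62 and 6.60 in knockout. Neither Tef cluster differed beyond its error, with log2 differences of -0.035 for the first (SE 0.10, limma p 0.743; 0.0019 under quantile normalization and 0.0052 under cyclic loess) and of -0.005 for the second (SE 0.11, limma p 0.964).

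**Figure D2:**
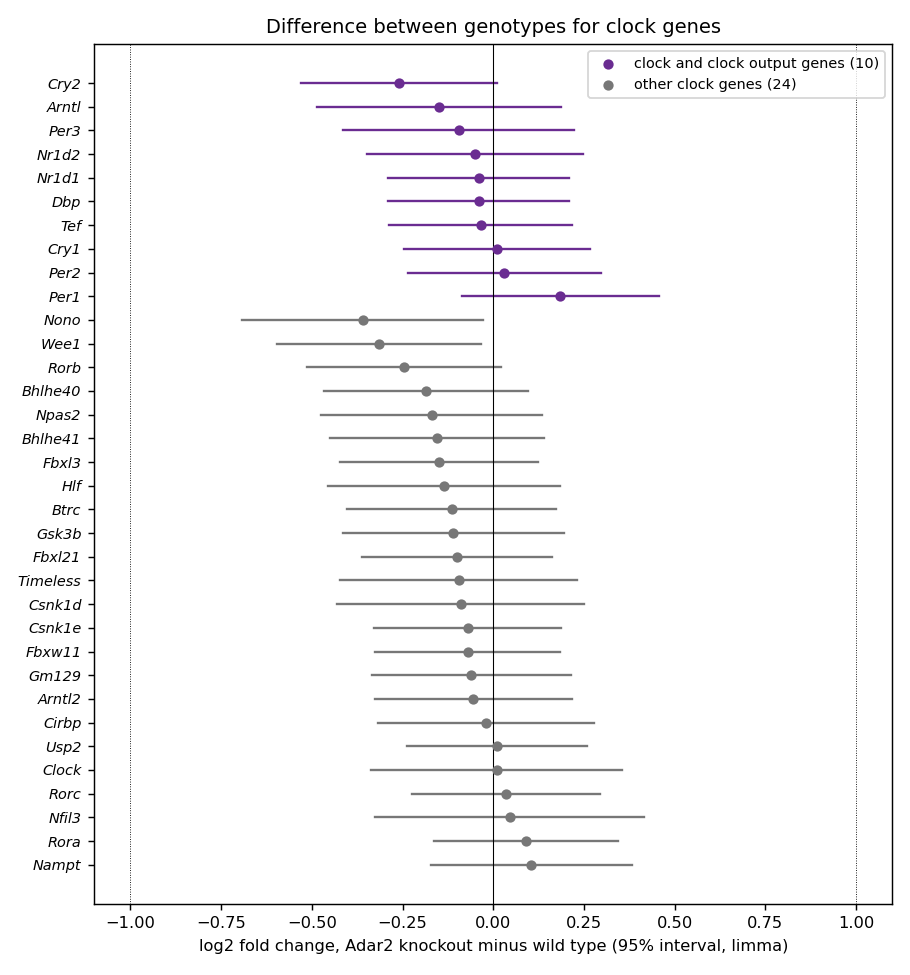
Log2 fold change of Adar2 knockout minus wild type (x axis, points) with 95% limma intervals (lines) for the 10 clock and clock output genes (purple) and 24 other clock genes (grey, Gm129 being the older symbol of Ciart). Every interval of the 10 genes contains 0 and lies inside the dotted lines that mark a 2-fold change, and the intervals of Nono and Wee1 lie below 0.

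The flatness of these genes was described by their range over the 4 arrays, irrespective of genotype. The median range of the 10 genes was 0.17 on the log2 scale, beside 0.28 over all clusters and 0.25 over the 16896 clusters above the median signal, a group to which all 10 belong. Dbp, Nr1d1, Tef, Cry1 and Per2 lay between 0.05 and 0.12, Nr1d2, Per3 and Per1 between 0.22 and 0.29, and Arntl and Cry2 at 0.36. A range of at least 0.3 was thus seen in 2 of 10 genes and in 46.8% of all clusters, or 37.0% of those above the median signal. The 24 other clock genes described further on had a median range of 0.265, and 11 of the 24 spanned at least 0.3. For comparison, Fos spanned 0.73 and Npas4 0.96.

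**Figure D3:**
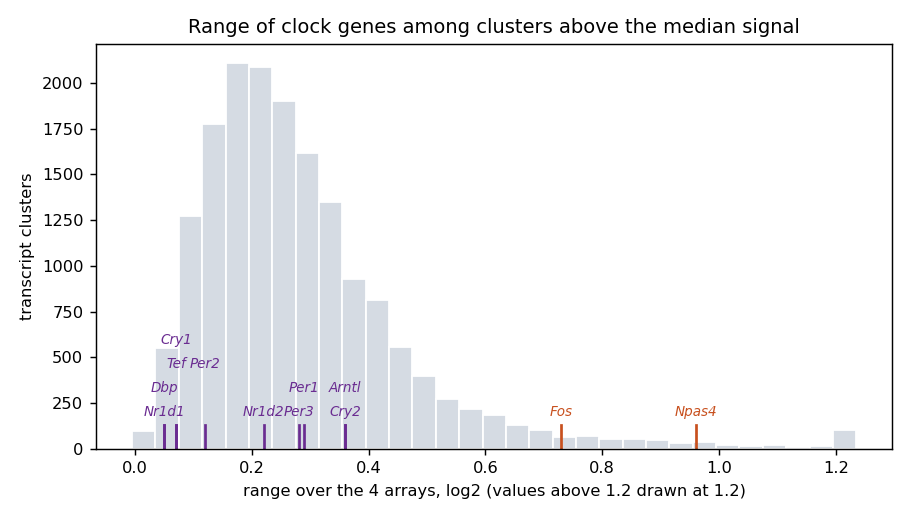
Histogram of the range over the 4 arrays (x axis, log2) for the 16896 clusters above the median signal (y axis, number of clusters), with the ranges of the 10 clock and clock output genes in purple and of Fos and Npas4 in orange. The 10 clock genes lie between 0.05 and 0.36, and the activity-induced genes at 0.73 and 0.96.

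Next, the 4 arrays were compared in pairs, as a difference in collection time would not have to follow genotype. A difference of at least 0.3 on the log2 scale was counted. Of 60 differences, 10 genes in each of 6 pairs, 2 reached it: Arntl between wild-type replicate 1 and knockout replicate 2 (0.36, higher in the former), and Cry2 between wild-type replicate 2 and knockout replicate 1 (0.36, higher in the former). Of all clusters, 20.9% reached it in the first of these pairs and 16.6% in the second, or 16.7% and 10.6% of those above the median signal. The shares of all clusters in the other 4 pairs were 16.6% between the wild-type arrays, 17.7% between the knockout arrays, 18.5% between the first replicates and 17.2% between the second replicates (12.5%, 11.8%, 13.8% and 12.1% of those above the median signal), and 0 of the 10 genes reached it there. Between the wild-type arrays the largest difference among the 10 genes was 0.28 for Arntl, and between the knockout arrays it was 0.24 for Per3.

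To see whether the small differences ran in the directions of a clock phase, 10 genes that peak by day or dusk (Per1, Per2, Per3, Dbp, Nr1d1, Nr1d2, Tef, Bhlhe41, Ciart and Usp2) and 5 that peak late at night (Arntl, Npas2, Clock, Nfil3 and Cry1) were centred on their own means and averaged per array. The day-phase mean was -0.021 for replicate 1 and 0.046 for replicate 2 of the wild type, and -0.025 and 0 for those of the knockout. The night-phase mean was 0.082 and -0.032 in wild type and 0.011 and -0.062 in knockout. The difference of the first minus the second, a score over chosen genes for which no p is given, was -0.10 in wild-type replicate 1, 0.077 in wild-type replicate 2, -0.035 in knockout replicate 1 and 0.062 in knockout replicate 2. The wild type averaged -0.013 ± 0.13 (SD, n = 2) and the knockout 0.013 ± 0.069 (SD, n = 2), a difference of 0.026 that was smaller than either SD. In both genotypes replicate 1 was below 0 and replicate 2 above it, so the score split by replicate number rather than by genotype. The night-phase mean split in the same way, with replicate 1 above 0 and replicate 2 below it in both genotypes. The labels do not say whether same-numbered arrays shared a collection time, and this was not tested.

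**Figure D4:**
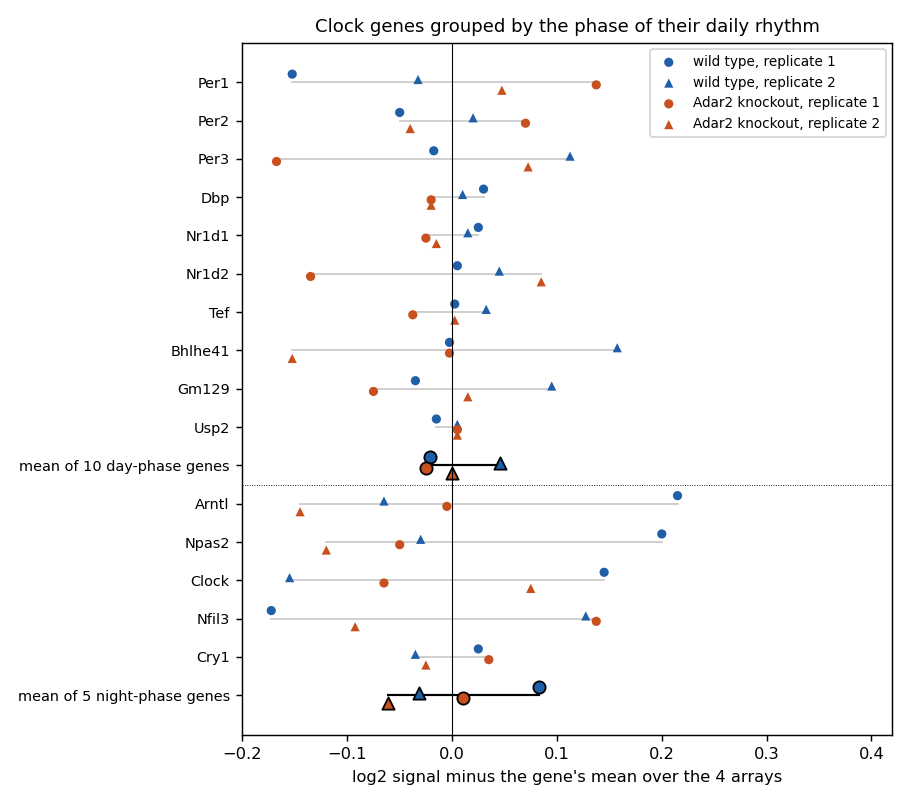
Log2 signal minus the gene's mean over the 4 arrays (x axis) for 10 day-phase and 5 night-phase clock genes, with the group means in outlined symbols, wild type in blue, Adar2 knockout in orange and the replicate number given by the symbol. Wild-type replicate 1 lies highest for Arntl, Npas2 and Clock and lowest for Nfil3, and Dbp, Nr1d1 and Usp2 are nearly the same on all arrays.

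Of 60 day-phase differences over the 6 pairs of arrays, 1 reached 0.3, that of Bhlhe41 between the second replicates, and of 30 night-phase differences 5 did, which belonged to Clock, Nfil3, Arntl and Npas2. In single pairs 16.6% to 20.9% of all clusters reached it, and 10.6% to 16.7% of those above the median signal, so the night-phase count was near these shares. Cry2 was in neither group. In the 15-gene score the widest contrast was that between the wild-type arrays. With only the 9 clock genes of the score that belong to the core set, wild-type replicate 1 was at -0.14, wild-type replicate 2 at 0.079, knockout replicate 1 at -0.04 and knockout replicate 2 at 0.10, and the widest contrast lay between wild-type replicate 1 and knockout replicate 2. Wild-type replicate 1 was above replicate 2 in 4 of the 5 night-phase genes and below it in 8 of the 10 day-phase genes. The share of all clusters in either direction was not counted. Over all clusters the median signal was 6.03 in wild-type replicate 1 and 6.06 in replicate 2, and the median difference between them, whatever its sign, was 0.13. Clock, the DNA-binding partner of ARNTL, was at 10.31 and 10.01 on these arrays and at 10.10 and 10.24 in knockout. Npas2, which can replace Clock in the forebrain, was at 10.34 and 10.11 in wild type and at 10.09 and 10.02 in knockout. Nfil3, a repressor at D-box elements, ran against this order with 7.37 and 7.67 in wild type and 7.68 and 7.45 in knockout. Of the wild-type differences, those of Clock and Nfil3 were 0.30, which 83.4% of clusters did not reach, that of Npas2 was 0.23 (73.0%) and that of Arntl 0.28 (81.0%). Dbp differed between these arrays by 0.02, Nr1d1 by 0.01 and Usp2 by 0.02. The choroid plexus markers, which vary with dissection, also differed between the wild-type arrays, with a summed level of 12.87 in replicate 1 and 13.24 in replicate 2 against 13.04 and 13.17 in knockout. The summed level of 3 blood markers was 9.66 in wild-type replicate 1 and 9.21 in replicate 2, against 8.71 and 9.30 in knockout. The part of either in this contrast was not tested.

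Of the remaining day-phase genes, Bhlhe41, a repressor at E-boxes, was at 8.79 and 8.95 in wild type and at 8.79 and 8.64 in knockout. Ciart, listed as Gm129, which encodes a repressor of the ARNTL dimer, was at 8.66 and 8.79 in wild type and at 8.62 and 8.71 in knockout. Usp2, a rhythmic ubiquitin protease gene, was at 9.73 and 9.75 in wild type and at 9.75 in both knockout arrays, and 0.0473% of clusters had a smaller range.

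The other parts of the clock were taken from a list of 24 genes. Of these 2 had an unadjusted limma p below 0.05, both lower in the knockout, and 0 passed an adjusted p of 0.05. The unadjusted share over all clusters was 5.95%, with 2.31% lower in the knockout. Wee1, a cell cycle kinase gene under E-box control, was at 8.72 and 8.54 in wild type and at 8.31 and 8.32 in knockout (log2 difference -0.315, SE 0.11, limma p 0.0338, adjusted p 0.834). Nono, which encodes an RNA- and PER-binding protein, was at 9.74 and 9.45 in wild type and at 9.19 and 9.28 in knockout (log2 difference -0.36, SE 0.14, limma p 0.0381, adjusted p 0.834). Wild-type replicate 1 was the highest array for both genes, and without it the differences were -0.225 for Wee1 and -0.215 for Nono, with unadjusted limma p-values of 0.113 and 0.150. Without wild-type replicate 2 they were -0.405 for Wee1 and -0.505 for Nono, with unadjusted limma p-values of 0.0303 and 0.0228. Without either knockout array the differences stayed between -0.32 and -0.31 for Wee1 and between -0.405 and -0.315 for Nono, with p-values of 0.103 to 0.181. With the replicate number as a block the differences were the same and the p-values were 0.0509 for Wee1 and 0.0766 for Nono.

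The median log2 difference of the 24 genes was -0.092 (-0.13 to -0.055 over the alternatives), beside 0.005 over all clusters and -0.025 over those above the median signal, and 18 of the 24 were below 0. Groups did not overlap in 11 of them, 10 lower and 1 higher in the knockout, where 16.5% and 17.7% of all clusters did so. Of the brain and blood markers, 3 with an unadjusted limma p below 0.05 were also lower in the knockout. These were the oligodendrocyte gene Mog (log2 difference -0.35, limma p 0.0258, 1 of 3 such markers), the erythroid gene Alas2 (-0.735, limma p 0.0467, 1 of 3) and the olfactory bulb gene Cdhr1 (-0.785, limma p 0.0214, 1 of 4), and their part in the values of the 24 genes was not tested. Among the loop partners Rorb, an activator at ROR elements, was at 8.49 and 8.45 in wild type and at 8.16 and 8.29 in knockout (log2 difference -0.245, SE 0.11, limma p 0.0661), and Rora, of the same family, at 8.72 and 8.73 against 8.78 and 8.85. The PAR bZIP factor Hlf was at 9.96 and 9.70 in wild type and at 9.74 and 9.65 in knockout, again with wild-type replicate 1 above the other 3 arrays. Cirbp, whose RNA follows body temperature, was at 7.58 and 7.62 in wild type and at 7.69 and 7.47 in knockout.

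Sites with strong rhythms of their own were followed by their markers. The summed level of Vip, Avp, Six6 and Prok2, markers of the suprachiasmatic nucleus, was 9.60 and 9.80 in wild type and 9.75 and 9.70 in knockout. Avp, at 8.85 to 9.05, and Vip, at 7.80 to 8.11, made up most of this sum. Six6 and Prok2 lay below the median signal of each array. In whole brain, RNA of Avp and Vip cannot be assigned to this nucleus alone, so the sum does not follow it. The summed level of the pineal markers Asmt, Aanat and Crx was 7.64 and 7.65 in wild type against 7.61 and 7.75 in knockout. Aanat, the gene of the rate-limiting enzyme of melatonin synthesis, which is induced at night, lay between 5.68 and 5.75 on the 4 arrays. This is below the median signal of each array (6.03 to 6.09), and Crx, at 4.59 to 5.26, was closer still to the level of the absent Y-linked genes, so these values cannot show whether the night-time rise was present. None of these 7 markers had an unadjusted limma p below 0.05. Of the 5 pituitary markers 3 did, led by Prl at 6.55 and 4.99 in wild type and 10.11 and 9.66 in knockout. The part of salivary and olfactory RNA in the clock gene values was not tested. Gh was at 6.30 and 5.68 against 9.95 and 8.36, and Pomc at 5.36 and 5.09 against 5.97 and 5.50, whereas Cga and Tshb overlapped between the genotypes. The part of pituitary RNA in the clock gene values cannot be told apart from genotype.

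The genes most like the clock genes in pattern were sought by Euclidean distance from the mean centred profile of Per1, Per2, Per3, Dbp, Nr1d1, Nr1d2 and Tef, over 4 arrays and among 11203 clusters with a single symbol and a range of at least 0.3. That profile spanned 0.054 only. The nearest were 1110035M17Rik, Cisd1, B3gat3, Ftl1 and Dhx29, at distances of 0.174 to 0.179, and each of them had a range of 0.30, the least that was admitted. The filter on range thus set both which genes were nearest and how near they could be. Their Pearson's r with the profile, across 4 arrays and given as a description, was between 0.782 and 0.885.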

How the data were processed

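Total RNA from whole brain of 2 wild-type and 2 Adar2-/- female mice was labelled with the Ambion WT Expression Kit and measured on Affymetrix gene arrays by a core facility. The authors deposited normalized log2 signals per transcript cluster and array, to 2 decimals. The submitters' processing notes name Affymetrix Expression Console and RMA. Versions and the build of the table's coordinates are not given in the sources used here. Columns with the authors' means, ratios, fold changes and p-values were not used. The number of arrays limits the precision.

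These log2 signals were fitted in R 4.3.3 with limma 3.58.1, using lmFit and eBayes with genotype as its single term, for all 33793 clusters and with no filter. Tests were two-sided, p-values were adjusted over all clusters after Benjamini and Hochberg, and the prior SD was 0.125 with 3.79 degrees of freedom. The cluster with the highest mean signal stood for a gene. As the labels do not say that the arrays came from separate litters or extractions, p-values measure the spread between these arrays. The genes, lists and motifs were chosen with earlier results of these data known. Named were the 10 genes, Adarb1, Fos, Npas4, defining markers of cell types, those of the 24 other clock genes that entered the phase groups or had an unadjusted p below 0.05, and the 5 genes nearest in pattern. Rorb, Rora, Hlf, Cirbp, Mog, Alas2 and Cdhr1 were named after their values were seen. Alternatives were 3 normalizations, a filter for bright clusters, the replicate block, each array left out, eBayes with a trend or robust, a pooled-variance test and the mean of a gene's clusters. Calculations, which also used Python 3.11.15 with pandas 2.3.3 and matplotlib 3.10.9, were tested on simulated data.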

Additional observations from a re-analysis of the deposited data

How the results depend on the processing

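The adjusted count over all clusters stayed at 0 in 12 of 13 alternatives and was 15 in the pooled-variance test without shrinkage. Of the 10 clock genes, 1 had an unadjusted p below 0.05 among clusters above the median signal, with an intensity trend and after median centring (each time Cry2). In the pooled-variance test 1 did (Nr1d1, at -0.04). The share of all clusters below this p was 5.95% in the main fit and was not counted in these alternatives. Non-overlapping genes numbered 2 of 10 under quantile normalization (33.4% of all clusters) and 2 under cyclic loess (34.3%), and 6 to 9 with single arrays left out (64.1% to 67.2%). Of the other clock genes, 0 had an unadjusted p below 0.05 under cyclic loess, 0 in the pooled-variance test and 1 under quantile normalization. There were 3 among clusters above the median signal, 3 with an intensity trend and 3 after median centring. For these counts too, the share over all clusters in each setting was not computed. The median of the 8 clock genes other than Arntl and Cry1, a set that holds Cry2, was -0.08 after median centring, 0.0076 under cyclic loess, 0.0016 under quantile normalization and -0.05 to -0.02 with single arrays left out. That of the other clock genes was -0.13 after median centring. The genotype difference of the phase score, 0.026 with all arrays, took both signs with single arrays left out, from -0.064 to 0.12.

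Of the 10 day-phase genes of the score, those that differed by at least 0.3 numbered 1 between wild-type and knockout replicate 1 under quantile normalization and 1 under cyclic loess, 1 between wild-type replicate 2 and knockout replicate 1 after median centring, and 0 between the second replicates under quantile normalization and 0 under cyclic loess. A threshold of 0.2 gave 1 in each of the 3 pairs in which 0.3 gave 0 and genotypes differed. It gave 2 between the knockout arrays, while 0.5 gave 0 between the second replicates. The shares of all clusters past 0.2 or 0.5, or past 0.3 under the other normalizations, were not counted. Signs turned for genes near 0. After median centring Per2 was at -0.01 and Cry1 at -0.03. Under cyclic loess Nr1d1 was at 0.0104, Dbp at 0.00999 and Tef at 0.0052, and under quantile normalization these were at 0.005, 0.0012 and 0.0019. With single arrays left out, Per2 ranged from -0.025 to 0.085, Per3 from -0.215 to 0.025, Cry1 from -0.02 to 0.04 and Nr1d2 from -0.16 to 0.06. What caused these shifts was not tested.

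For the pairing, the deviations of same-numbered arrays from their genotype means were correlated over all clusters. Pearson's r was 0.052, so the numbers were taken as names only. The phase score did split by replicate number, and a shared collection time of same-numbered arrays was not tested. With the replicate block 0 clusters passed an adjusted p of 0.05, and 0 clock genes and 0 other clock genes had an unadjusted p below 0.05. In fits without an array, the lone one was assumed to vary like the others.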
